A study of Mus musculus with 24 samples.

Results

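Of the 24594 genes in the counts table, 9 are genes of the primitive streak and early mesoderm, the region and germ layer that form at gastrulation. They are the transcription factor genes T (Brachyury), Eomes, Mixl1, Mesp1, Gsc and Evx1, the secreted signals Wnt3 and Fgf8, and the receptor gene Kdr. The set was listed by name, with earlier results of these data known, and joined to the gene IDs. RNA-seq had been done in 24 libraries of mouse embryonic stem cells (mESCs) of 129S6/SvEvTac background, grown on gelatin in serum with leukemia inhibitory factor and without other treatment. There were 11 wild-type (WT) libraries, 2 each of batches A, B, C and E and 3 of batch D. Rsf1Δ and WstfΔ (Baz1b) had 2 libraries each in batch A, Tip5Δ (Baz2a) 2 in batch B, BptfΔ 2 in batch C and Acf1Δ (Baz1a) 2 in batch E, and 3 libraries of batch D were labelled Cecr2Δ. Each line is labelled as lacking a noncatalytic subunit of an ISWI chromatin remodeler, was made with CRISPR–Cas9 and is a single clone. Acf1 had been targeted in 2 rounds. The replicates are libraries of the same clone, so the tests measure the spread between libraries, and the effect of a deletion and of its clone cannot be told apart.

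In the gastrulating embryo, the streak forms where Wnt, Nodal and FGF signals act together. Wnt3 is needed for the streak to form, and T, Eomes and Mixl1 are among the transcription factors that act there. Mesp1 marks the earliest heart and vessel progenitors, Gsc the anterior streak and organizer, Evx1 the posterior streak, Fgf8 is needed for cells to leave the streak, and Kdr (Flk1) is a vascular endothelial growth factor (VEGF) receptor of the mesoderm that gives rise to blood and vessels. Undifferentiated mESCs hold little of these mRNAs. In bulk RNA, fewer cells that express a gene and less RNA per cell cannot be told apart.

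Promoter sequences are shown for T, Wnt3 and Kdr, the genes whose levels moved most between the lines. Each run holds the 250 bases before the RefSeq start site (GRCm38.p6), 5′ to 3′ on the strand of the gene, and capitals mark the core that TCF/LEF proteins, the nuclear effectors of Wnt signals, recognize (CTTTGA, or TCAAAG where it lies on the opposite strand). The T promoter lies at chr17:8434173-8434422 (+ strand), that of Wnt3 at chr11:103773925-103774174 (+) and that of Kdr at chr5:75978456-75978705 (−), where the start site used by RefSeq lies inside the annotated span of the gene.
T: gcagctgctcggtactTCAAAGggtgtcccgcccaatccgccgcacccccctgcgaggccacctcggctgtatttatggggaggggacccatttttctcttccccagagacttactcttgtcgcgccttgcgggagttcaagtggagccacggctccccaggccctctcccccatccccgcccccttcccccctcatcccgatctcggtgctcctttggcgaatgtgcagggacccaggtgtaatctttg
Wnt3: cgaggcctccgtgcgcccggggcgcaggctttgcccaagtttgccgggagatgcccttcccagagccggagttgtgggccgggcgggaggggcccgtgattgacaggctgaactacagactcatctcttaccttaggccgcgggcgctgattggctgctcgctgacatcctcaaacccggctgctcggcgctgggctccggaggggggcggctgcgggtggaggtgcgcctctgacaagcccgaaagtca
Kdr: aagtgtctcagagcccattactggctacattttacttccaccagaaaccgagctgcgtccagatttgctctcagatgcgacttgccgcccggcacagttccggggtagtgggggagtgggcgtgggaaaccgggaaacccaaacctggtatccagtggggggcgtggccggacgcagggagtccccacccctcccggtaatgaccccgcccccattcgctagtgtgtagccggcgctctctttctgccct
Of the 9 genes, 7 had a promoter entry. Mixl1 and Fgf8 had none. The TCF/LEF core occurred in 2 of the 7, which were T, with 1 match from 234 to 229 bases before the start, and Mesp1, with matches from 72 to 67 and from 31 to 26 bases before it. It occurred in 13.8% of all 32851 promoter windows of this length. A T-box site (AGGTGTGA on either strand, in 1.12% of all windows) and the core of the CTCF motif (in 2.93%) matched none of the 7. The windows of T, Kdr and Wnt3 held 14, 16 and 22 CpG dinucleotides, against a median of 6 over all windows, and 6 of the 7 exceeded that median. Mesp1, with 2, did not.

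Total counts per library ranged from 13.4 to 36.7 M (mega), with a median of 25.0 M. The targeted gene was lower in Rsf1Δ, WstfΔ, BptfΔ and Acf1Δ, with log2 fold changes (log2FC) from -2.40 to -1.72. Baz2a mRNA was at -0.26 in Tip5Δ (edgeR adjusted p = 0.0533). Cecr2 mRNA was at 0.37 in the libraries labelled Cecr2Δ, above WT (edgeR adjusted p = 0.000154). For this reason only the label is used for these libraries. The mRNA levels do not measure protein. By western blot, the paper found the targeted protein undetectable in every deletion line, and its clones were also checked by DNA sequencing. The 4 libraries of batch C stood apart from the other 20 in RNA without a poly(A) tail, with 3288 to 4824 normalized CPM (counts per mega of library size, scaled with TMM factors) of Rpph1, the RNA of ribonuclease P, against at most 3.39, although all samples are labelled as poly(A) RNA. The 8 genes that define mESCs (Pou5f1, Sox2, Nanog and others) were detected in every library.

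All 9 genes were expressed at low levels. In the 11 WT libraries, Eomes was highest, at 3.87 ± 1.05 normalized CPM (SD, n = 11 libraries), which lay above 28.4% of the 15682 genes tested. To compare levels between genes, normalized CPM were divided by the gene width of the authors' table. On this per-kilobase scale the order was Eomes (0.932), Wnt3 (0.414), Mixl1 (0.358), T (0.334), Gsc (0.211), Fgf8 (0.190), Kdr (0.180), Evx1 (0.125) and Mesp1 (0.0978). The ranges of neighbours in this order overlapped at every step, so that no gene was set apart from the next beyond the spread of the WT libraries. Mesp1, a basic helix-loop-helix factor, had 0 to 8 counts per library, 3 or fewer in 16 of the 24, and did not pass the filter on low counts. The other 8 passed and were tested. A count of 0 in a single library allows up to 3 counts, or 0.0837 to 0.220 normalized CPM, depending on its depth.

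**Figure D1:**
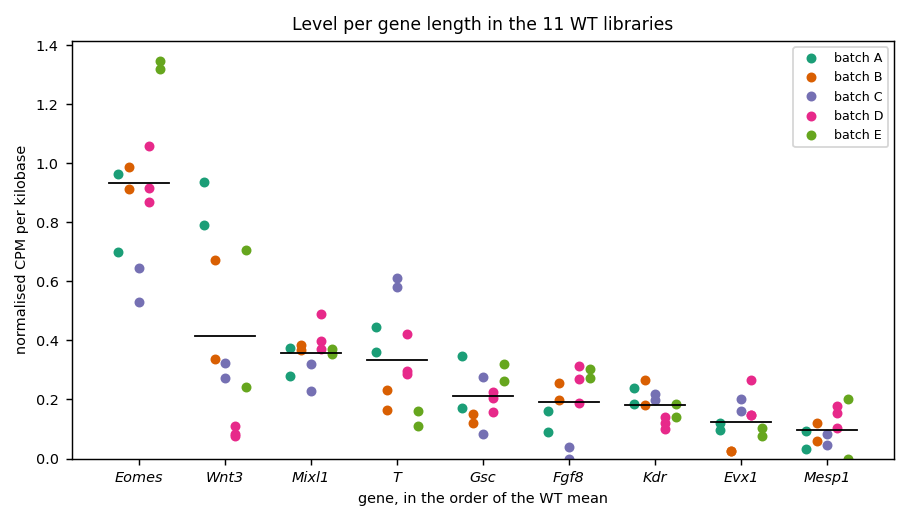
Level of each gene per kilobase of gene width (normalized CPM per kilobase, y axis) in the 11 WT libraries, with 1 point per library coloured by batch and a line at the mean. Genes are in the order of the WT mean, from Eomes (0.932) to Mesp1 (0.0978). For Wnt3 the 3 points of batch D (0.111 and below) lie under those of every other batch, while the 2 of batch E (0.707 and 0.241) span those of batches B and C.

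WT cells differed between batches. Of the 8 genes tested, 5 were called different between the batches (edgeR adjusted p under 0.01 and a fitted range over 2-fold), where 24% of all genes were. Wnt3 had the widest spread of measured levels after Fgf8, from 2.43 and 2.89 normalized CPM in batch A to 0.342, 0.260 and 0.232 in batch D, a 9.57-fold ratio of means (edgeR adjusted p = 1.07e-06). In batch E its 2 WT libraries were at 2.174 and 0.741, from 59 and 20 counts. Of 135 comparisons of a gene between replicate libraries, this was the only 1 in which they differed beyond counting error (exact binomial test, two-sided, adjusted p = 0.00176). T was highest in batch C, at 1.42 and 1.34 normalized CPM, and lowest in batch E, at 0.258 and 0.370 (edgeR adjusted p = 0.000452). Eomes showed the opposite order of these batches, with 2.20 and 2.68 normalized CPM in batch C and 5.60 and 5.48 in batch E (edgeR adjusted p = 0.000171). Evx1 ranged from 0.0766 and 0.0767 in batch B to 0.427, 0.423 and 0.761 in batch D (edgeR adjusted p = 0.00442), and the call was lost without either WT library of batch B (0.0319 and 0.0317) or the third of batch D (0.0131). Fgf8 had 1 and 0 counts in batch C, and its call (edgeR adjusted p = 0.00943) was lost in most alternatives. Kdr, lowest in batch D at a mean of 1.09 normalized CPM, had a fitted range of 1.87-fold (edgeR adjusted p = 0.00258), under the 2-fold minimum. In log2 that range was 1.15 without the second WT library of batch B and 1.02 without the second of batch D. Without the 4 libraries of batch C, 2 genes were called, Wnt3 and Evx1, and T had an adjusted p of 0.0116 by edgeR. Whether the non-poly(A) RNA of batch C has a part in these differences was not tested. Each line was therefore compared with the WT libraries of its own batch.

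**Figure D2:**
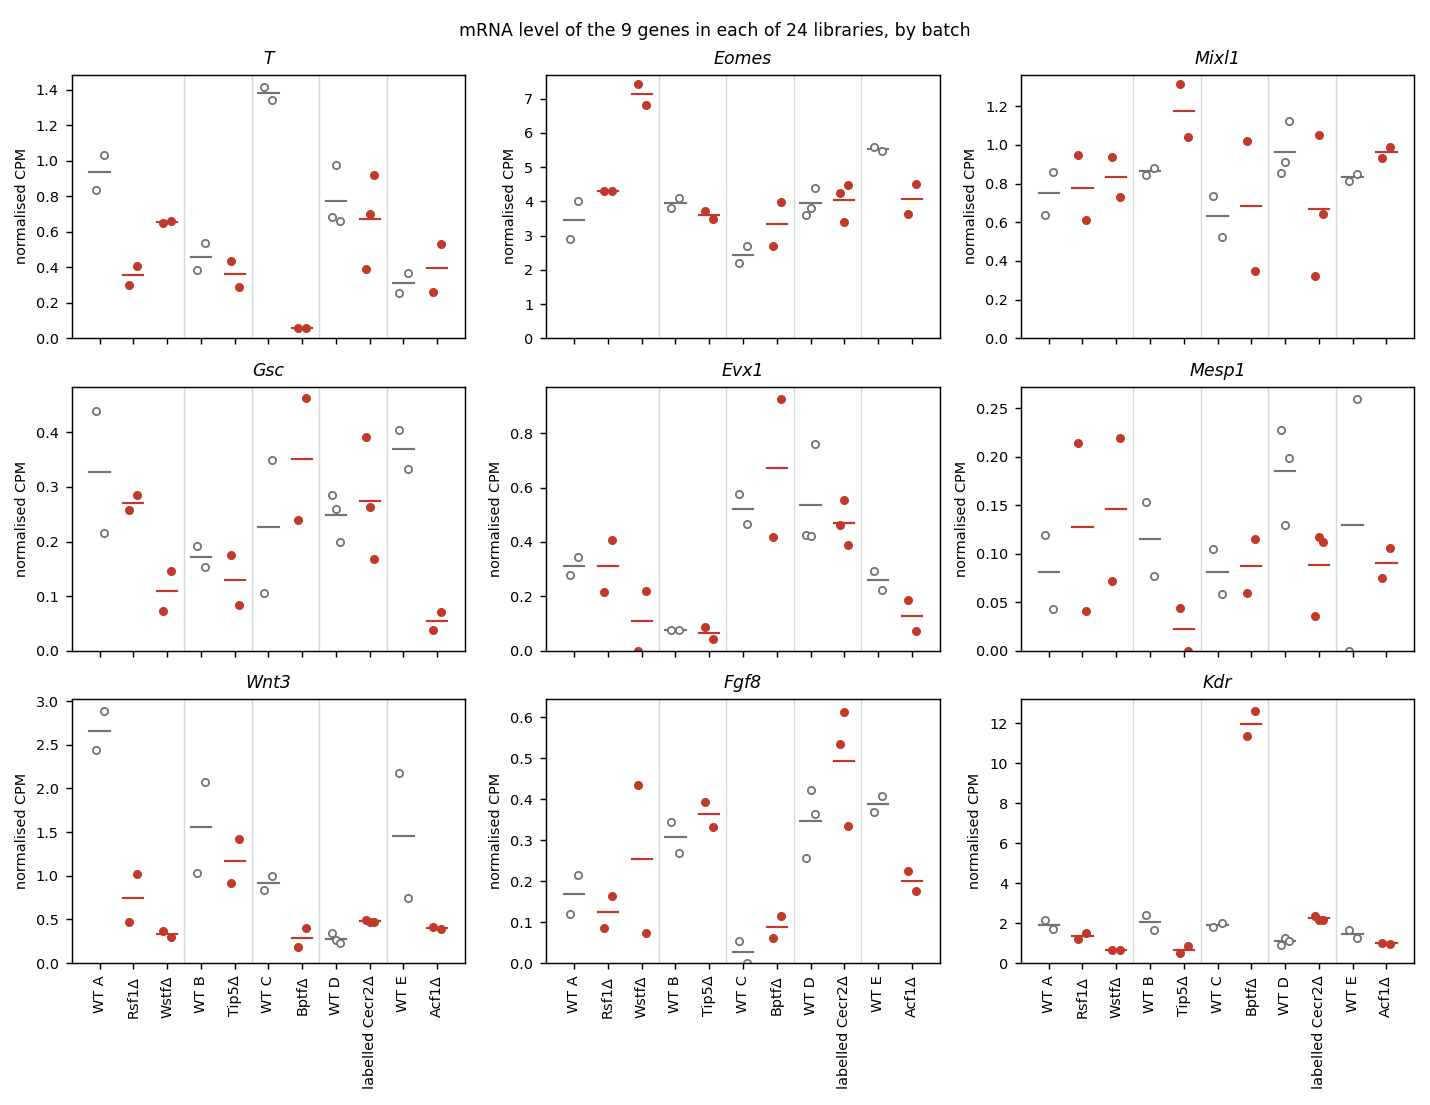
Normalized CPM (y axis, linear, from 0) of the 9 genes in each of the 24 libraries, with 1 panel per gene and the batches A to E set off by grey lines. Open circles are WT, filled circles the deletion lines, and horizontal bars group means. T is near 0 in BptfΔ (0.0599 and 0.0578), Kdr is high there (11.4 and 12.6), and Wnt3 is low in WstfΔ (0.361 and 0.293) against WT of batch A (2.43 and 2.89).

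Of the 48 tests of a gene in a line, 10 passed the threshold (absolute log2FC over 1 and adjusted p under 0.01 in edgeR's quasi-likelihood test), 14 had an unadjusted p under 0.05, and 5 of the 8 genes passed in at least 1 line. In Rsf1Δ 1 of the 8 was called, where 5.91% of all genes were. The counts were 3 of 8 in WstfΔ (10.4% of all genes), 1 in Tip5Δ (2.72%), 2 in BptfΔ (13.8%), 2 in Acf1Δ (4.45%) and 1 where the label was Cecr2Δ (3.11%). Without the 2-fold minimum the counts of the 8 genes were unchanged in every line, while the shares of all genes were 20.6% in Rsf1Δ, 34.7% in WstfΔ, 9.07% in Tip5Δ, 41.6% in BptfΔ, 31.8% in Acf1Δ and 18.4% for the Cecr2Δ label. The median log2FC of the 8 genes was -0.33 in Rsf1Δ, -0.99 in WstfΔ, -0.29 in Tip5Δ, 0.41 in BptfΔ, -0.76 in Acf1Δ and 0.07 for the Cecr2Δ label, and that of all genes tested was between -0.03 and 0.01 in each line. The calls were spread unevenly over the genes. Wnt3 accounted for 3 of the calls, all lower, Kdr for 4, in either direction, and T, Eomes and Gsc for 1 each.

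**Figure D3:**
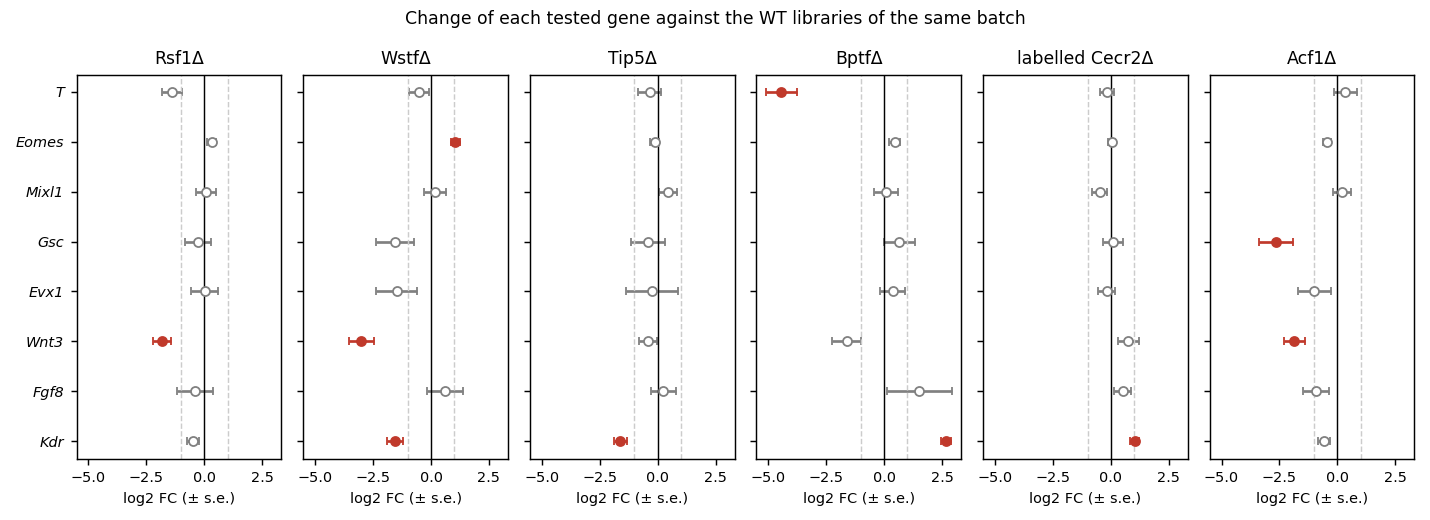
Log2FC (x axis) of the 8 tested genes in each line against WT of the same batch, from the edgeR fit, with bars of 1 standard error (s.e.). Filled points passed the threshold and dashed lines mark a 2-fold change. The changes run from -4.44 for T to 2.67 for Kdr, both in BptfΔ.

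Wnt3, the ligand (chr11:103774175-103818021, + strand), fell in Rsf1Δ, WstfΔ and Acf1Δ. In batch A, Wnt3 was at 2.43 and 2.89 normalized CPM in WT, at 0.472 and 1.02 in Rsf1Δ and at 0.361 and 0.293 in WstfΔ. Every library of these lines lay below both WT libraries, and WstfΔ had only 5 and 4 counts. The log2FC was -1.82 in Rsf1Δ (s.e. 0.40, 3.52-fold lower, edgeR adjusted p = 0.000802) and -3.00 in WstfΔ (s.e. 0.54, 8.01-fold lower, edgeR adjusted p = 4.56e-05). The call in Rsf1Δ was lost without the second WT library (edgeR adjusted p = 0.0110) or the first Rsf1Δ library (0.0326). Rsf1Δ and WstfΔ share their WT libraries, so these changes are not independent. In batch E, Wnt3 was at 2.174 and 0.741 in WT and at 0.411 and 0.388 in Acf1Δ. The groups did not overlap, but the WT libraries differed from each other more than the lower of them did from Acf1Δ. The log2FC there was -1.86 (s.e. 0.46, edgeR adjusted p = 0.00193), and without the first WT library it was -0.88. The call was lost without that library, and also without either Acf1Δ library. In BptfΔ, Wnt3 was at 0.180 and 0.404 against 0.840 and 0.992 in WT of batch C, which did not pass the threshold (log2FC -1.62, s.e. 0.64, edgeR adjusted p = 0.0345). It passed when only batch C was fitted (edgeR adjusted p = 0.00753) and when no gene was filtered (0.00795). In the libraries labelled Cecr2Δ, Wnt3 was at 0.498, 0.467 and 0.474 against 0.342, 0.260 and 0.232, with a log2FC of 0.76 (95% interval -0.18 to 1.70). In Tip5Δ it was at 0.919 and 1.41 against 1.04 and 2.07 (-0.41, 95% interval -1.21 to 0.40). Where Wnt3 was called lower, its levels were still inside those spanned by WT cells of all batches, because WT of batch D was at 0.342 or less. The change in the libraries labelled Cecr2Δ differed from that in 3 lines. Rsf1Δ minus Cecr2Δ was -2.58 in log2 (edgeR adjusted p = 0.00247), WstfΔ minus Cecr2Δ was -3.76 (0.000191) and Cecr2Δ minus Acf1Δ was 2.62 (0.00204). WstfΔ also differed from Tip5Δ (-2.60, edgeR adjusted p = 0.00488). These were 4 of the 15 pairs of lines. The share of all genes that differed was 7.79% between Rsf1Δ and WstfΔ, 3.65% between Rsf1Δ and Tip5Δ, 3.93% between Rsf1Δ and Acf1Δ, 8.14% between WstfΔ and Tip5Δ, 12.3% between WstfΔ and Acf1Δ and 5.64% between Tip5Δ and Acf1Δ. Against BptfΔ it was 12.2% for Rsf1Δ, 8.09% for WstfΔ, 11.7% for Tip5Δ and 15.7% for Acf1Δ. Against the libraries labelled Cecr2Δ it was 4.20% for Rsf1Δ, 7.89% for WstfΔ, 2.42% for Tip5Δ, 13.2% for BptfΔ and 7.43% for Acf1Δ.

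Fgf8 (chr19:45736491-45742941, − strand), the second ligand, had 0 to 21 counts per library and passed the threshold in no line. Its level was 0.224 and 0.176 normalized CPM in Acf1Δ against 0.368 and 0.407 in WT of batch E, below both, with a log2FC of -0.94 (95% interval -2.09 to 0.21). In BptfΔ it rested on 1 and 2 counts against 1 and 0, and its interval ran from -1.37 to 4.40. A change of Fgf8 in that line was not detectable at this depth.

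T (chr17:8434423-8442496, + strand), the T-box factor that defines the nascent mesoderm, fell in BptfΔ. It was at 1.42 and 1.34 normalized CPM in WT of batch C, from 27 and 23 counts, and at 0.0599 and 0.0578 in BptfΔ, from 1 count in each library. These were the lowest T levels of the 24 libraries. Scaled for depth, the count ratio of WT to BptfΔ was 23.5, with an exact 95% interval from counting error alone of 6.17 to 199. The fitted log2FC was -4.44 (s.e. 0.67, edgeR adjusted p = 3.08e-06), a value that depends on the prior count at such low counts. WT of batch C also held the highest T levels of all WT libraries. Against the lowest WT library of any batch, at 0.258, the BptfΔ libraries were still lower. The change in BptfΔ differed from that in each of the other 5 lines, with 3.06 for Rsf1Δ minus BptfΔ at the smallest (edgeR adjusted p = 0.00900) and -4.78 for BptfΔ minus Acf1Δ at the largest in size (edgeR adjusted p = 6.65e-05). The difference from Rsf1Δ had an edgeR adjusted p of 0.01001 when no gene was filtered, just over the threshold.

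In the other lines T passed the threshold nowhere. In Rsf1Δ it was at 0.301 and 0.407 against 0.838 and 1.03 normalized CPM in WT of batch A, with a log2FC of -1.38 (s.e. 0.44, edgeR adjusted p = 0.0168). Both Rsf1Δ libraries lay below both WT libraries. WstfΔ was at 0.650 and 0.659 (log2FC -0.51, 95% interval -1.41 to 0.39), also below WT. The groups overlapped in Tip5Δ, Acf1Δ and the libraries labelled Cecr2Δ, with log2FC of -0.34, 0.34 and -0.17.

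Eomes (chr9:118478186-118486132, + strand), the T-box factor of mesendoderm and also of trophoblast, rose in WstfΔ. It was at 7.44 and 6.80 normalized CPM in WstfΔ and at 2.91 and 4.005 in WT of batch A, from 73 to 103 counts per library. WstfΔ was above each of the 11 WT libraries, of which the highest was at 5.60. The log2FC was 1.05 (s.e. 0.19, edgeR adjusted p = 5.84e-05), close to the 2-fold minimum, and it was 0.83 without the first WT library and 0.98 without the first WstfΔ library. The change in WstfΔ exceeded that in Tip5Δ, Acf1Δ and the libraries labelled Cecr2Δ, by 1.18, 1.49 and 1.01 in log2 (edgeR adjusted p of 0.00114, 3.22e-05 and 0.00150). It was not called different from that in Rsf1Δ or BptfΔ. Rsf1Δ minus WstfΔ was -0.73 (edgeR adjusted p = 0.00223), under the 2-fold minimum, and WstfΔ minus BptfΔ was 0.59 (0.144). In Acf1Δ, Eomes was at 3.62 and 4.52 against 5.60 and 5.48 in WT of batch E, below both, with a log2FC of -0.44 (s.e. 0.17, edgeR adjusted p = 0.0395). In the remaining 4 lines its log2FC lay between -0.13 and 0.46. An antisense gene, Gm33460, overlaps Eomes, and whether strand was used in counting is not given in the sources used here, so its reads may be included. Eomes is also 1 of 8 trophectoderm markers. The summed level of these 8 was 79.4 to 83.2 normalized CPM in WstfΔ against 438.5 to 444.7 in WT of batch A. Of the 7 tested, 4 were lower (6.57% of all genes) and 1 was higher (Eomes itself, 3.87% of all genes). Elf5 was at 0 in WstfΔ, but it had at most 10 counts in any library, too few to show a change. Their part in the Eomes result was not tested.

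Gsc (chr12:104471209-104473236, − strand), the homeobox factor of the organizer, fell in Acf1Δ. It was at 0.405 and 0.333 normalized CPM in WT of batch E, from 11 and 9 counts, and at 0.0373 and 0.0706 in Acf1Δ, from 1 and 2 counts. Both Acf1Δ libraries lay below each of the 11 WT libraries. The depth-scaled count ratio of WT to Acf1Δ was 6.79 (exact 95% interval from counting error 2.01 to 35.7), and the fitted log2FC was -2.66 (s.e. 0.73, edgeR adjusted p = 0.00463). The call did not hold when any of these 4 libraries was left out (edgeR adjusted p from 0.0103 to 0.0402) or in DESeq2 (adjusted p = 0.0251). In WstfΔ, where Gsc had 1 and 2 counts against 11 and 5, the log2FC was -1.56 (95% interval -3.23 to 0.11). Only 1 of 15 pairs of lines differed in Gsc, BptfΔ minus Acf1Δ (3.31, edgeR adjusted p = 0.00801), and that difference had an adjusted p of 0.0267 without the filter.

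Mixl1 (chr1:180693043-180697034, − strand) and Evx1 (chr6:52313498-52318389, + strand), homeobox factors of the streak, passed the threshold in no line. With Fgf8 they made up 18 of the 48 tests, of which 0 had an unadjusted p under 0.05 in edgeR and 0 passed in DESeq2. DESeq2 gave no adjusted p for 6 values, Fgf8 in WstfΔ, Tip5Δ and for the Cecr2Δ label among them, so these could not pass. Mixl1 varied least of the set in WT, relative to its mean, at 0.821 ± 0.154 normalized CPM (SD, n = 11), and its log2FC ran from -0.48 in the libraries labelled Cecr2Δ to 0.44 in Tip5Δ. It was at 1.31 and 1.04 in Tip5Δ against 0.843 and 0.882 in WT of batch B, higher in each library (95% interval -0.36 to 1.24). Evx1 was at 0 and 0.220 in WstfΔ, from 0 and 3 counts, against 0.279 and 0.345 in WT of batch A. It was at 0.187 and 0.0706 in Acf1Δ against 0.295 and 0.222 in WT of batch E (log2FC -0.996, 95% interval -2.45 to 0.46). The antisense gene Evx1os overlaps Evx1, and the same limit on strand holds. Mesp1 (chr7:79792241-79793590, − strand), which was not tested, had 1 and 2 counts in BptfΔ and 2 and 1 in WT of batch C, and no line could be told from WT at these counts.

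Kdr (chr5:75932827-75979072, − strand), the VEGF receptor, moved in 4 lines and in both directions. In batch C it was at 1.78 and 1.98 normalized CPM in WT, from 34 counts each, and at 11.4 and 12.6 in BptfΔ, from 190 and 218 counts. The BptfΔ libraries were the highest of all 24, and the next highest library, of WT, was at 2.41. The log2FC was 2.67 (s.e. 0.21, 6.36-fold higher, edgeR adjusted p = 2.53e-11). In libraries with the Cecr2Δ label, Kdr was at 2.35, 2.16 and 2.18 against 0.911, 1.27 and 1.09 in WT of batch D. All 3 lay above their WT libraries, though within the range of WT libraries of other batches. The log2FC was 1.03 (s.e. 0.19, edgeR adjusted p = 0.000141), and it fell under the 2-fold minimum without the first WT library (0.91) or the first library of the line (0.998).

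Kdr fell in WstfΔ and Tip5Δ. It was at 0.650 and 0.659 normalized CPM in WstfΔ against 2.15 and 1.68 in WT of batch A, and at 0.482 and 0.832 in Tip5Δ against 2.41 and 1.65 in WT of batch B. All 4 libraries of these lines lay below each of the 11 WT libraries, whose lowest was at 0.911. The log2FC was -1.55 in WstfΔ (s.e. 0.34, edgeR adjusted p = 0.000464) and -1.61 in Tip5Δ (s.e. 0.29, edgeR adjusted p = 0.000162). In Tip5Δ the adjusted p was 0.0110 without the first WT library and 0.0136 without the first Tip5Δ library. In Rsf1Δ (1.203 and 1.51 against 2.15 and 1.68) and Acf1Δ (1.01 and 0.953 against 1.66 and 1.26) every library lay below WT as well, with log2FC of -0.50 (95% interval -1.02 to 0.02) and -0.57 (95% interval -1.12 to -0.02) that did not pass the threshold. Kdr differed in 9 of the 15 pairs of lines, the most of the 8 genes. These were BptfΔ against each of the other 5 lines, with 1.64 for BptfΔ minus the libraries labelled Cecr2Δ (edgeR adjusted p = 4.45e-05) and -4.28 for Tip5Δ minus BptfΔ (edgeR adjusted p = 1.6e-10) as the extremes in size, and the libraries labelled Cecr2Δ against Rsf1Δ, WstfΔ, Tip5Δ and Acf1Δ as well.

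Markers of mESCs and of other cell states were called in several lines. The share of all genes called lower was 5.26% in Rsf1Δ, 6.57% in WstfΔ, 2.63% in Tip5Δ, 8.59% in BptfΔ, 2.33% for the Cecr2Δ label and 3.32% in Acf1Δ. The 8 genes that define mESCs summed to 6356 to 6391 normalized CPM in BptfΔ against 3875 to 3932 in WT of batch C, and 3 were called higher (5.25% of all genes). They summed to 5548 to 5581 in WstfΔ against 3705 to 3826 in WT of batch A, and 2 were called higher (3.87%). In the other lines 0 of the 8 were called by edgeR. Primitive endoderm markers (8 genes, Gata6, Gata4, Sox17 and others) were called lower for 8 of 8 in Tip5Δ and BptfΔ, 7 in Rsf1Δ and for the Cecr2Δ label, 5 in WstfΔ and 0 in Acf1Δ by edgeR. Their summed level was 592 to 629 normalized CPM in Tip5Δ against 3514 to 3565 in WT of batch B, and 276 to 282 in BptfΔ against 1902 to 1995 in WT of batch C. The summed level of the 7 formative and primed pluripotency markers was 600.5 to 619 in BptfΔ against 830.1 to 834 in WT, and 5 of 7 were called lower there. It was 745 to 755 in WstfΔ against 858 to 884 in WT of batch A, with 4 of 7 called lower. In Rsf1Δ and Acf1Δ 1 of 7 was called lower, in Tip5Δ 0 were called by edgeR, and for the Cecr2Δ label 1 was called higher and 0 lower, with a median log2FC of 0.56. No gene of these 2 lists was at 0 throughout any group. Trophectoderm markers were called lower for 4 of 7 tested in Rsf1Δ and for the Cecr2Δ label, 3 in BptfΔ, 2 in Acf1Δ and 0 in Tip5Δ by edgeR. Neural ectoderm and fibroblast markers summed to at most 99.0 and 35.8 normalized CPM in any library. Fibroblast markers were called lower for 3 of 5 tested in each of Rsf1Δ, WstfΔ, Tip5Δ, BptfΔ and Acf1Δ, and neural markers for 2 of 4 in WstfΔ and Acf1Δ and 1 of 4 in Rsf1Δ and BptfΔ. By edgeR, 1 fibroblast marker was higher in WstfΔ, 1 neural marker was higher in WstfΔ and in BptfΔ, and 0 of either list were called for the Cecr2Δ label. In Acf1Δ the fibroblast list summed to 14.5 to 15.6 against 26.8 to 26.9 in WT of batch E, and the neural list to 26.3 to 27.6 against 51.0 to 53.8. The part of these lists in the changes of T, Wnt3, Gsc and Kdr was not tested.

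Log2 levels were compared across the 24 libraries after subtracting the mean of the WT libraries of the same batch. The changes of the lines therefore stay in these values, those of T and Kdr in BptfΔ among them. The genes most like T included Lrp2 (r = 0.95) and Amot (0.95), out of 13194 genes. For Wnt3 they were Rab15 (r = 0.93), Arhgap42 (0.91) and Ssbp2 (0.90), and for Kdr they were Epha4 (0.93), an ephrin receptor, Afmid (0.91) and Glis3 (0.90). Those most like Eomes were Pou4f1 (r = 0.90), Wdr54 (0.89) and Gzf1 (0.88), and those most like Gsc were Ralgds (0.84), Aoah (0.84) and Srgap3 (0.82). Values were lower for Fgf8 (Apc2, 0.78), Evx1 (Kitl, 0.77) and Mixl1 (5031425E22Rik, 0.65). Between the 8 genes themselves, r ranged from -0.62 for T and Kdr to 0.62 for Gsc and Evx1. These are descriptions over libraries that share clones, batches and depth.

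A wider list of 77 genes of the same pathways, of which 74 were tested, was called more often lower than higher in each line. In Rsf1Δ 12 of the 74 were lower (16.2%, where 5.26% of all genes were). The numbers lower were 17 in WstfΔ (23.0% against 6.57%), 11 in Tip5Δ (14.9% against 2.63%), 16 in BptfΔ (21.6% against 8.59%), 5 in Acf1Δ (6.76% against 3.32%) and 9 for the Cecr2Δ label (12.2% against 2.33%). Those higher were 5 in WstfΔ (3.87% of all genes), 4 in BptfΔ (5.25%), 1 in Acf1Δ (1.14%) and 0 in Rsf1Δ (0.650%), Tip5Δ (0.0829%) and the Cecr2Δ label (0.784%). The median log2FC of the 74 stayed between -0.13 and 0.06 in each line. Bmp2, Cdh5, Flt1, Foxa2, Nog, Pdgfra and Runx1 were each lower in 5 lines. Except for Cdh5, these 5 lines were Rsf1Δ, WstfΔ, Tip5Δ, BptfΔ and the Cecr2Δ label, the same lines in which 5 to 8 of the 8 primitive endoderm markers were called lower. Foxa2 is known from endoderm and Pdgfra also from primitive endoderm. The part of primitive endoderm cells in these changes was not tested.

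**Figure D4:**
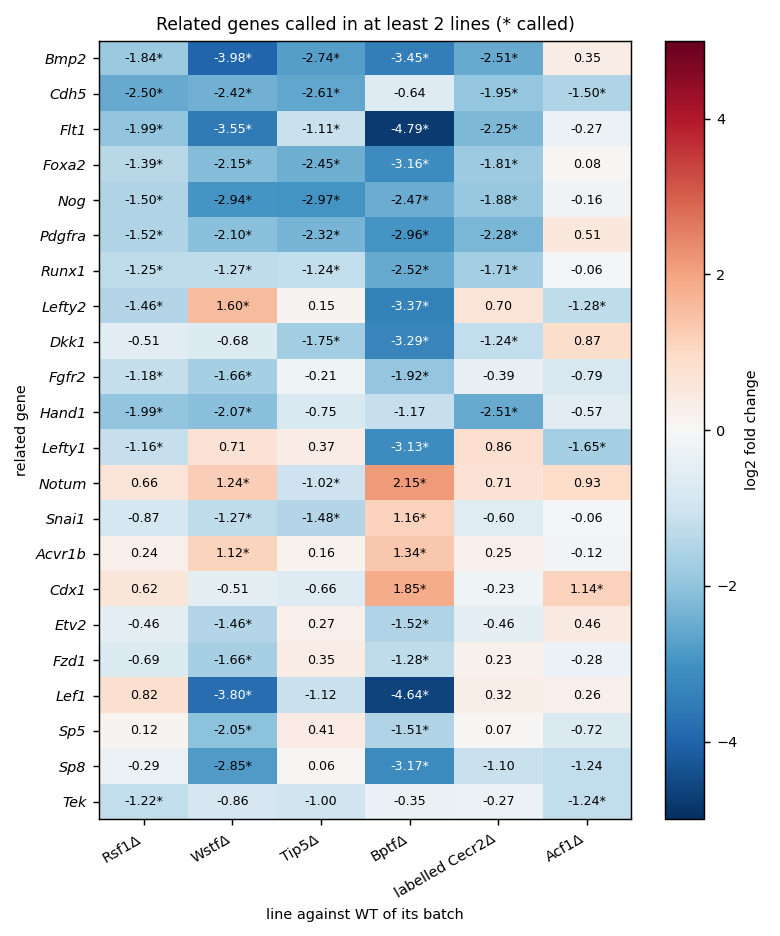
Log2FC of the 22 genes of the wider list that passed the threshold in at least 2 lines (rows) in each of the 6 lines (columns) against WT of the same batch. Blue is lower, red is higher and an asterisk marks a call. Flt1 is lower in BptfΔ (-4.79), where Kdr is higher, and Lef1 is low in WstfΔ (-3.80) and BptfΔ (-4.64).

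Of the 12 other signals listed, 1 was called in Rsf1Δ (5.91% of all genes), 2 in WstfΔ (10.4%), 2 in Tip5Δ (2.72%), 1 in BptfΔ (13.8%), 1 for the Cecr2Δ label (3.11%) and 0 in Acf1Δ (4.45%) by edgeR. Nodal, the signal that induces mesendoderm, was under the 2-fold minimum in every line, with a log2FC of 0.09 to 0.76. Its edgeR adjusted p was under 0.01 in 4 lines, which were BptfΔ (0.76, 1.18e-09), Rsf1Δ (0.56, 4.83e-07), Acf1Δ (0.23, 0.00930) and those with the Cecr2Δ label (0.30, 0.000201). Bmp2 fell in 5 lines, from 8.10 to 0.509 normalized CPM in WstfΔ (group means, log2FC -3.98, s.e. 0.31, edgeR adjusted p = 5.78e-11). Bmp4, a mesoderm-inducing signal, rose in WstfΔ, from 47.8 to 115 (log2FC 1.26), and Fgf3 fell in Tip5Δ (-1.31). Among the inhibitors, the Nodal antagonists Lefty1 and Lefty2 fell in BptfΔ, from 45.4 to 5.18 and from 40.7 to 3.94 normalized CPM (log2FC -3.13 and -3.37, edgeR adjusted p of 4e-18 and 1.74e-19). They also fell in Rsf1Δ (-1.16 and -1.46) and Acf1Δ (-1.65 and -1.28), while Lefty2 rose in WstfΔ (1.60). The Wnt antagonist Dkk1 fell in BptfΔ (-3.29), Tip5Δ (-1.75) and the libraries labelled Cecr2Δ (-1.24), and the BMP antagonist Nog fell in 5 lines.

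Lef1, a nuclear effector of Wnt signals, fell from 6.65 to 0.474 normalized CPM in WstfΔ (log2FC -3.80, s.e. 0.32, edgeR adjusted p = 1.91e-10) and from 4.53 to 0.179 in BptfΔ (-4.64, s.e. 0.40, edgeR adjusted p = 2.16e-10). Of the 12 effectors of Wnt, Nodal, BMP and FGF signals listed, it was the only 1 called in BptfΔ, where 13.8% of all genes were. In WstfΔ Foxh1 (-1.06), a Nodal effector, was called with it. Of the 9 Wnt and T target genes listed, 5 were called in BptfΔ (2 higher and 3 lower) and 3 in WstfΔ (1 higher and 2 lower), where 10.4% of all genes were called. Sp8 fell in WstfΔ (-2.85) and BptfΔ (-3.17), Sp5 in WstfΔ (-2.05) and BptfΔ (-1.51), and Cdx2 in BptfΔ (-3.31). Sp8 had at most 4 counts in a WstfΔ library, and Sp8 and Cdx2 at most 2 in a BptfΔ library. The sizes of these changes are therefore uncertain. Sp5 in BptfΔ passed narrowly (edgeR adjusted p = 0.00961). Notum, a secreted Wnt inhibitor that is itself a target, rose in WstfΔ (1.24) and BptfΔ (2.15) and fell in Tip5Δ (-1.02), and Cdx1 rose in BptfΔ (1.85) and Acf1Δ (1.14).

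Among the transcription factors of streak and early mesoderm, Foxa2 fell in 5 lines (log2FC -3.16 in BptfΔ and -2.45 in Tip5Δ), Hand1 in Rsf1Δ (-1.99), WstfΔ (-2.07) and the libraries labelled Cecr2Δ (-2.51), and Meis2 in WstfΔ (-2.94). Hand1, like Cdx2, is also in the trophectoderm marker list, so its falls are counted in both lists. Snai1, which drives the epithelial-to-mesenchymal transition in the streak, fell in WstfΔ (-1.27) and Tip5Δ (-1.48) and rose in BptfΔ (1.16). Tbx6, a paraxial mesoderm factor, fell in Acf1Δ, from 0.924 to 0.254 normalized CPM (-1.84, s.e. 0.52, edgeR adjusted p = 0.00519). Among receptors, Fgfr2 fell in Rsf1Δ (-1.18), WstfΔ (-1.66) and BptfΔ (-1.92), Fzd1 in WstfΔ (-1.66) and BptfΔ (-1.28), and the Nodal receptor Acvr1b rose in WstfΔ (1.12) and BptfΔ (1.34).

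Flt1 and Kdr were called in opposite directions in BptfΔ and for the Cecr2Δ label. Flt1, the VEGF receptor related to Kdr, fell in BptfΔ from 9.86 ± 0.16 to 0.354 ± 0.092 normalized CPM (SD, n = 2 each, log2FC -4.79, s.e. 0.29, edgeR adjusted p = 1.52e-13), while Kdr rose. In the libraries labelled Cecr2Δ, Flt1 fell as well (-2.25, edgeR adjusted p = 1.05e-11), while Kdr rose. Both fell in WstfΔ (log2FC -3.55 for Flt1 and -1.55 for Kdr) and in Tip5Δ (-1.11 and -1.61). Runx1 (-2.52) and Pdgfra (-2.96) were also lower in BptfΔ, and 4 of the 11 blood and vessel genes were called lower there (8.59% of all genes) and 0 higher (5.25%) by edgeR. In WstfΔ 5 of the 11 were called lower (6.57% of all genes) and 1 higher (3.87%). The latter was Gata2, a factor of blood progenitors, which rose from 11.2 to 32.6 normalized CPM (log2FC 1.55, s.e. 0.13, edgeR adjusted p = 4.13e-10). The endothelial cadherin Cdh5 was called lower in Rsf1Δ (-2.50), WstfΔ (-2.42), Tip5Δ (-2.61), the libraries labelled Cecr2Δ (-1.95) and Acf1Δ (-1.50), and Tek, a receptor of angiopoietins, in Rsf1Δ (-1.22) and Acf1Δ (-1.24).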

How the data were processed

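RNA was measured by sequencing in 24 mESC libraries. The authors aligned reads to mm10 with QuasR (HISAT2, per the labels) and deposited raw counts per gene of the UCSC knownGene annotation, without normalization. The deposited table also gives each gene a width in bases, used here to set levels between genes side by side. IDs were joined to RefSeq of GRCm38.p6, where 24570 of 24594 matched. How multiply mapping reads and strand were counted is not given in the sources used here.

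Groups and batches came from the sample labels. With R 4.3.3 and edgeR 4.0.16, genes were filtered by filterByExpr over genotypes (15682 left), scaled with TMM factors and fitted with a quasi-likelihood model (legacy form) of batch and genotype over all 24 libraries, and p-values were Benjamini-Hochberg adjusted over all genes tested. A gene was called at an absolute log2FC over 1 and an adjusted p under 0.01. Lines were compared by contrasts of their coefficients, and WT batches by an F test of the batch terms. Standard errors (s.e.) are the absolute log2FC divided by the square root of F. Likeness is Pearson's r of log2 normalized CPM (prior count 2, mean of at least 1 normalized CPM) after subtracting the mean of the WT libraries of the same batch. Count ratios have exact 95% intervals, which cover counting error only.

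Total counts of 13.4 to 36.7 M per library set the depth. No replicate pair agreed within sampling noise, with a variance 1.38 to 20.4 times that of sampling. The steps were tested on simulated data. The members, gene lists and tests were chosen with earlier results of these data known. Named genes were the 9 members and, from the wider list, at most the 3 largest changes per role and line among called genes. Nodal, genes called in 5 lines, and Flt1, Sp5, Cdx1, Snai1, Tek and Gata2 in some lines were named after their values were seen. Alternatives were DESeq2 1.42.0, edgeR's newer fit, library size only, no filter, own batch only, no batch term, a replicate block, no fold-change minimum and leaving out each library. Leaving out batch C, and the alternatives for the wider list, were added after seeing the data.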

Additional observations from a re-analysis of the deposited data

Results flagged for a closer look

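The change of Kdr differed in direction between lines, and the difference itself passed the threshold in 4 pairs in which each line was called with the opposite sign. In log2, WstfΔ minus BptfΔ was -4.22 (edgeR adjusted p = 2.6e-09) and Tip5Δ minus BptfΔ was -4.28 (1.6e-10). WstfΔ minus the libraries labelled Cecr2Δ was -2.58 (6.85e-06), and Tip5Δ minus those libraries was -2.65 (2.98e-06). Every library of WstfΔ and Tip5Δ lay below, and every library of BptfΔ and of those labelled Cecr2Δ above, the WT libraries of its own batch. Each of these lines comes from a single clone, so a clone and its deletion cannot be told apart.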

How the results depend on the processing

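Of 670 values of single genes under alternatives, 605 kept their direction and side of the threshold, 28 lost the call and 2 gained it. The other 35 changed sign, and 0 of these were called in either fit. Without the batch term, 11 changed sign. In log2 these were Mixl1 (-0.091), Gsc (0.020) and Evx1 (-0.19) in Rsf1Δ, Fgf8 in WstfΔ (-0.070), Eomes (-0.22), Mixl1 (-0.28) and Fgf8 (-1.55) in BptfΔ, Wnt3 (-1.39) and Evx1 (0.39) for the Cecr2Δ label, and T (-0.93) and Eomes (0.067) in Acf1Δ. Evx1 in Rsf1Δ also changed sign with the replicate block (-0.026). T and Kdr in BptfΔ were called under every alternative run. Without the batch term, the number of the 9 genes called was 0 in Rsf1Δ, WstfΔ, Tip5Δ, Acf1Δ and the Cecr2Δ label, and 2 in BptfΔ, and that of the wider list was 0, 7, 2, 0 and 10 in the former 5. In Acf1Δ 1 gene was called in DESeq2, without the filter and with its own batch only. Without a fold-change minimum, the wider list had 31 calls in Rsf1Δ, 34 in WstfΔ, 18 in Tip5Δ, 41 in BptfΔ, 27 for the Cecr2Δ label and 30 in Acf1Δ. The causes were not tested, beyond what the settings themselves change.

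With each library left out in turn, the genes called were 0 to 1 in Rsf1Δ, 2 to 3 in WstfΔ, 0 to 1 in Tip5Δ, 2 to 2 in BptfΔ, 0 to 1 for the Cecr2Δ label and 0 to 1 in Acf1Δ. Values that changed sign ranged in Rsf1Δ from -0.29 to 0.34 (Mixl1), -0.68 to 0.33 (Gsc), -0.91 to 0.064 (Fgf8) and -0.52 to 0.38 (Evx1), and in WstfΔ from -0.043 to 0.39 (Mixl1) and -1.13 to 1.36 (Fgf8). In Tip5Δ they ranged from -1.01 to 0.021 (Gsc), -0.82 to 0.18 (Wnt3) and -0.81 to 0.18 (Evx1), and in BptfΔ from -0.86 to 0.68 (Mixl1) and -0.32 to 0.81 (Evx1). For the Cecr2Δ label they ranged from -0.47 to 0.075 (T), -0.054 to 0.15 (Eomes), -0.21 to 0.36 (Gsc) and -0.33 to 0.14 (Evx1), and in Acf1Δ from -0.26 to 0.74 (T). Wnt3 in Rsf1Δ lost its call without the second WT library of batch A (edgeR adjusted p = 0.0110) or the first Rsf1Δ library (0.0326). Wnt3 in Acf1Δ lost it without the first WT library of batch E (0.212) or either Acf1Δ library (0.0120 and 0.0204). The wider list ranged over 12 to 13, 17 to 23, 10 to 11, 16 to 19, 9 to 9 and 5 to 8 calls in the same order. Genes differing between WT batches numbered 5, with 3 to 5 when a library was left out, 3 of them without the first WT library of batch B or the third of batch D, and 2 without batch C.

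The replicate numbers did not pair the samples, with correlations of deviations from -0.07 to 0.05 over 15 pairs. With the replicate block, no call of the 9 genes changed, and the wider list had 12, 22, 12, 19, 9 and 6 calls. With 1 to 3 counts in a library, as for T in BptfΔ and Gsc in Acf1Δ, depth limits the size of a change to a wide interval.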
